A study of Mus musculus with 6 samples.

Results

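The cytosolic ribosomal proteins are the structural proteins of the ribosomes that translate nuclear-encoded mRNAs. They were collected by name: every gene of the deposited table called Rpl or Rps followed by a number, with or without a closing a, x or l, together with Rplp0, Rplp1, Rplp2, Rpsa and Fau, and without the S6 kinases and names that mark a pseudogene. The rule found 82 of the 24346 genes, of which 49 belong to the large subunit and 33 to the small subunit (Fau, which encodes protein S30, and Rpsa included). RNA from whole livers of 6 male C57/BL6 mice, 8 weeks old, had been sequenced 24 hours after 1 intraperitoneal dose of CCl4 in sunflower oil, 0.6 μl per g body weight. Of these, 3 were med23 f/f controls, called wt in the sample labels, and 3 were med23 Δli, called med23 ko, and each library came from 1 mouse. CCl4 is a liver toxin that hepatocytes turn into a reactive radical. Per the study design both groups carry floxed Med23, and in med23 Δli mice a Cre driven by the Albumin promoter acts in hepatocytes, so that the other cells of the liver keep the gene. No untreated livers were part of the comparison.

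A ribosome holds 1 copy of nearly every one of these proteins, with the acidic stalk proteins as the best known exception. The large subunit joins amino acids and carries the exit tunnel for the new chain, and the small subunit reads the mRNA. The mRNAs of these proteins begin with a C and a run of pyrimidines, the 5′ terminal oligopyrimidine (TOP) sequence, through which mTORC1 and LARP1 control their translation. Hepatocytes, which export large amounts of plasma protein, are rich in ribosomes.

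To show this shared start, the RefSeq promoter sequences of GRCm38.p6 were read, which reach from 250 bases before to 50 bases after an annotated start of transcription. Of the 82 genes, 61 had an entry. At an annotated start, 14 of the 61 (23.0%) had a C followed by at least 4 C or T bases on the strand of the gene, against 484 of 17191 genes of the table with an entry (2.82%) and 0 of 68 mitochondrial ribosomal protein genes. Annotated starts can lie a few bases from the start that is used, so a gene without a match may still have the run close by. Shown are 7 of the 14, those of genes described below and of Rpl15, which had one of the longest runs, with 5 bases before the start, 20 bases from it, and the C and its pyrimidine run in capitals.
Rps15a: gccatCTTCCCTCgccggtgagtga
Rpl35: ctttcCTCTTTCTCTCgaaccaggc
Rpl15: gccttCTTCCTTTCCTCTggcggca
Rplp2: tcttcCTTTCgccgccggacgccgc
Rps6: cgggcCTCTTTTTCgtgacgcctcc
Fau: cacttCTTCCTCTTTCTTgactcca
Rps27: tcgctCCTTTCCggcggtgacgacc
These windows lie at chr7:118116128-118116152 (minus strand, Rps15a), chr2:39005112-39005136 (minus, Rpl35), chr14:18270967-18270991 (minus, Rpl15), chr7:141447646-141447670 (plus, Rplp2), chr4:86857348-86857372 (minus, Rps6), chr19:6057942-6057966 (plus, Fau) and chr3:90213629-90213653 (minus, Rps27). The longest runs shown were those of Rpl15 and Fau, with 12 pyrimidines after the C.

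The level of the deleted gene overlapped between the groups: Med23 was at 3.42, 2.97 and 4.14 FPKM in controls, against 3.40, 3.40 and 2.91 FPKM under the med23 Δli label (log2 fold change -0.11, adjusted p = 0.685). A value per gene does not resolve the deleted exons, and cells other than hepatocytes keep the gene, so these values cannot check the labels. FPKM scales fragments to transcript length and to the mapped total. Read counts are not part of it, which leaves the depth of each library unknown here and only the scatter among the 3 mice per group as error. For 11956 genes averaging 0.5 FPKM or more, log2(FPKM + 0.1) was compared by limma, and a gene was called at a Benjamini-Hochberg adjusted p under 0.05 over all of them. A log2 fold change on this scale is the livers labelled med23 Δli over controls, and for weakly expressed genes it is smaller than the true change. In whole tissue, fewer cells of a type and less RNA per cell cannot be told apart. The 10 most abundant genes made up 18.1% ± 1.95 of all FPKM in controls and 12.3% ± 1.63 under the med23 Δli label (SD, n = 3 each), and none of the 82 was among the 10.

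Cytosolic ribosomal protein mRNAs made up a larger part of the measured mRNA in the livers labelled med23 Δli. Their summed FPKM was 9.18%, 10.2% and 9.51% of all FPKM in the control livers and 13.7%, 12.3% and 12.3% in the livers labelled med23 Δli, so the groups did not overlap. The means were 9.62% ± 0.509 and 12.8% ± 0.817 (SD, n = 3 each). With the 10 most abundant genes of the table left out of the total, the shares were 11.0% to 12.3% in the controls and 14.1% to 15.3% in the other group. The 100 most abundant genes of a library held between 25 and 29 of the 82 genes in the controls and between 33 and 40 in the livers labelled med23 Δli.

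Of the 82 genes, 79 passed the filter on low values, and Rpl10l, Rpl39l and Rpl3l did not. Rises were called for 22 of the 79 (27.8%), where 11.6% of all genes tested were called higher. Falls were called for Rps27 and Rps4l alone (2.53%), where 9.48% of all genes were called lower. The changes were small: past 2-fold as well were Rpl34 upward, where 4.45% of all genes were, and Rps27 and Rps4l downward, where 3.45% of all genes were. For 57 of the 79 (72.2%) every liver labelled med23 Δli was above every control, where 23.3% of all genes were, and for 2 every such liver was below, where 20.4% of all genes were. The log2 fold change was above 0 in 77 of the 79, and in 70 of 79 after quantile normalization, where 52.2% of all genes were above 0 on the main scale. Its median over the 79 was 0.42 (quartiles 0.26 and 0.52), and over all genes tested 0.02.

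The calls depended on single mice more than the sizes did. Leaving out the med23 Δli mouse numbered 1 left 0 members called higher by limma (27 at an unadjusted p under 0.05), leaving out number 2 left 1, leaving out number 3 left 6, and leaving out the control numbered 1 left 7, while the median log2 fold change stayed between 0.36 and 0.50 with each mouse left out in turn. The counts over all genes fell with them, from 1384 higher to 401, 487, 578 and 1125 in the same order. Of the members described below by the naming rule, each one called except Rps4l lost its call without med23 Δli mouse 1, with limma's adjusted p between 0.0512 (Rps15a) and 0.133 (Rplp0). Rps12 and Rps27l, which were not called, were called without control 2 (adjusted p = 0.0328 and 0.0363).

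Library by library, 46 of the 79 genes were highest in med23 Δli mouse 1, 22 in mouse 2 and 2 in mouse 3, against 0, 8 and 1 in controls 1 to 3. The lowest value of a gene fell in control 3 for 40 genes, in control 2 for 19 and in control 1 for 18. The median deviation of a gene from its own mean over the 6 libraries was -0.22, -0.07 and -0.25 on the log2 scale in the controls and 0.30, 0.25 and 0.09 in the livers labelled med23 Δli. Thus med23 Δli mouse 3 lay closest to the controls, and control 2 closest to the other group.

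**Figure D1:**
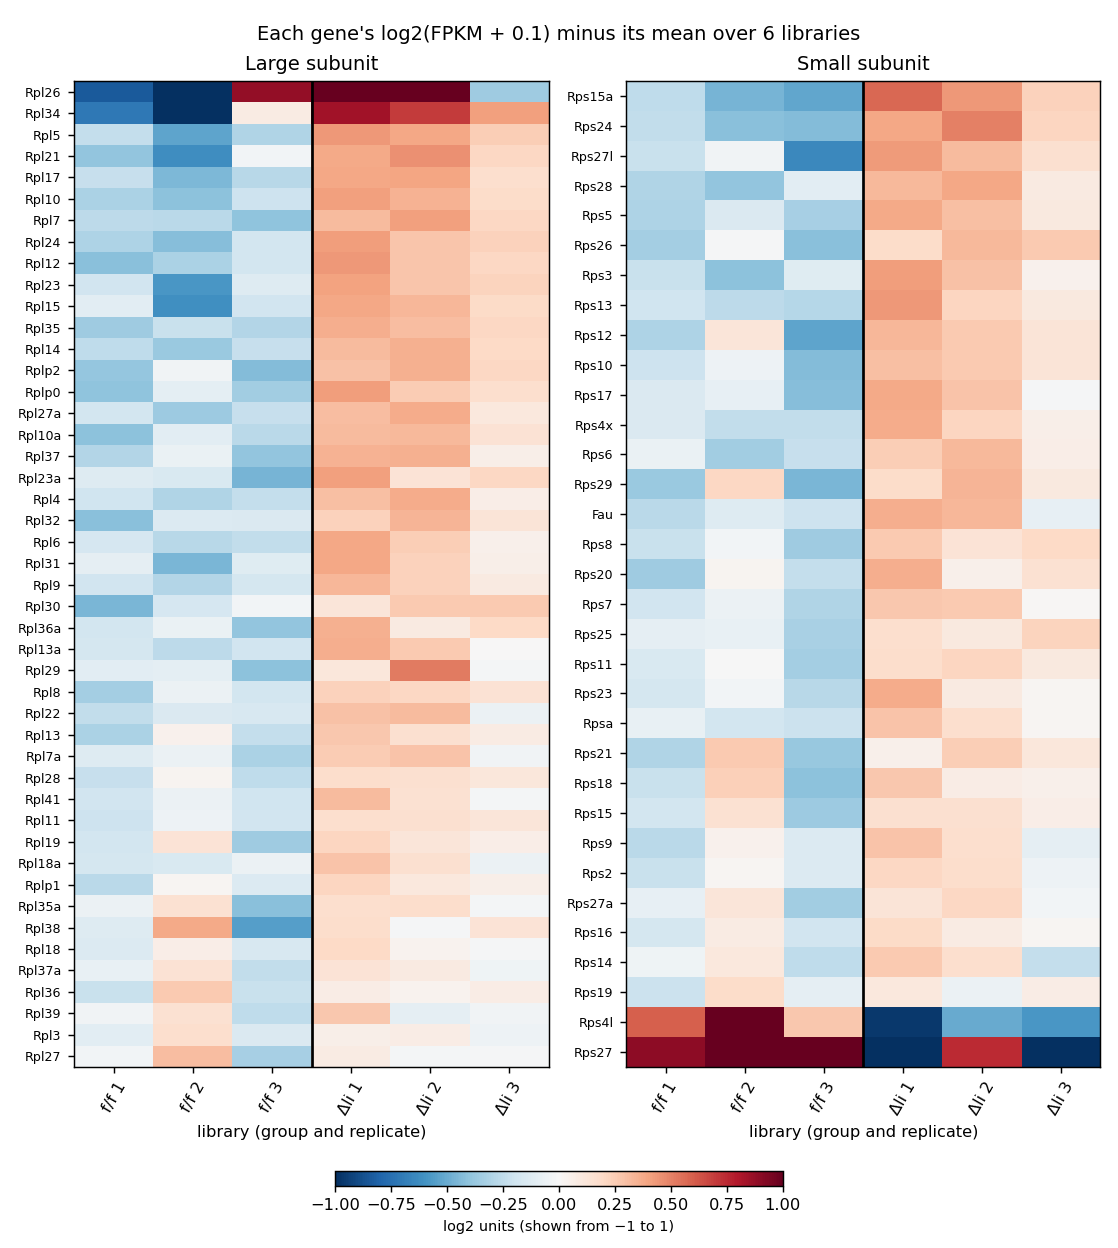
Log2(FPKM + 0.1) of each gene minus its own mean over the 6 libraries, by subunit (genes in rows by falling log2 fold change, libraries in columns, color from -1 to 1 log2 units). Most genes are low in the 3 controls (f/f) and high in the 3 livers labelled med23 Δli, palest in number 3, and Rps4l and Rps27 at the bottom of the small subunit run the other way.

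The question of whether the subunits differ was addressed next. Large subunit genes made up 5.18%, 5.63% and 5.47% of all FPKM in the controls and 7.83%, 6.98% and 7.07% in the livers labelled med23 Δli. Small subunit genes held 4.00%, 4.55% and 4.04% in the controls and 5.88%, 5.30% and 5.23% in the other group. Neither subunit overlapped between the groups, and the ratio of large to small did: it was 1.30, 1.24 and 1.35 in the controls and 1.33, 1.32 and 1.35 in the livers labelled med23 Δli.

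**Figure D2:**
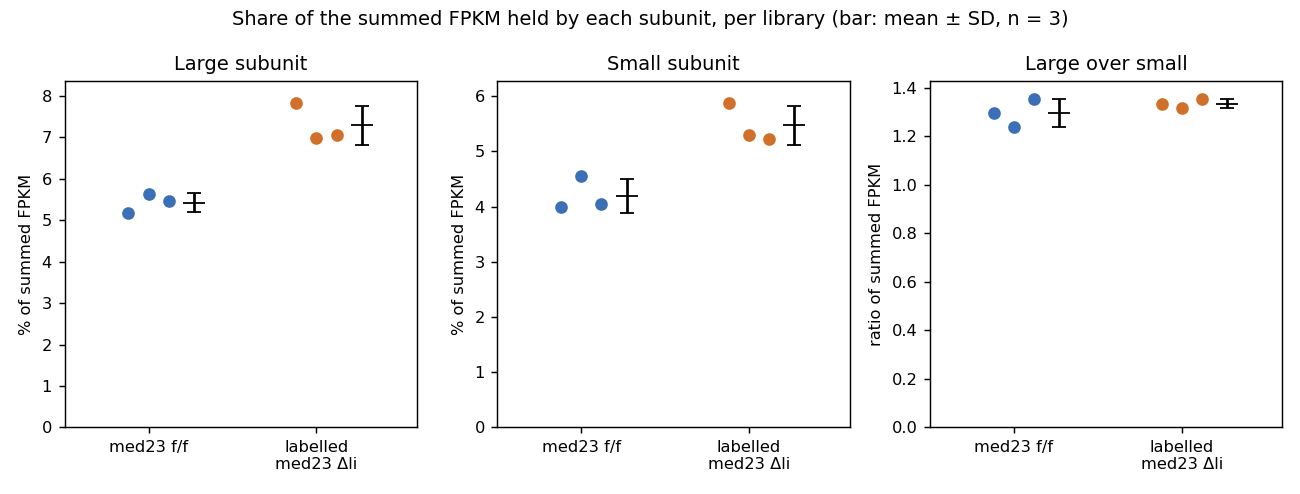
Share of the summed FPKM held by large and by small subunit genes and the ratio of the sums (one point per library, with mean ± SD, n = 3). Each subunit is higher in the 3 livers labelled med23 Δli than in all controls, while the ratio, 1.24 to 1.35 in controls and 1.32 to 1.35 in the other group, overlaps.

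By gene, 17 of the 46 large subunit genes tested were called higher (37.0%) and 0 lower, and 5 of the 33 small subunit genes were called higher (15.2%) and 2 lower (6.06%). Over all genes tested 11.6% were called higher and 9.48% lower, beside which the shares of the small subunit called were close. Without overlap and higher were 36 large subunit genes (78.3%) and 21 small subunit genes (63.6%), where 23.3% of all genes were. The median log2 fold change was 0.44 for the large subunit (range 0.03 to 1.35) and 0.38 for the small subunit (range -2.53 to 0.83). The difference of the medians was 0.06 and lay between 0.03 and 0.13 with each mouse left out. In single libraries the median log2 level of the large subunit minus that of the small subunit was -0.14, -0.31 and -0.21 in the controls and -0.23, -0.20 and -0.14 in the livers labelled med23 Δli, which overlap. With the libraries rescaled to an equal sum, 22 large and 12 small subunit genes were called higher, where 1414 of all 11956 genes were.

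**Figure D3:**
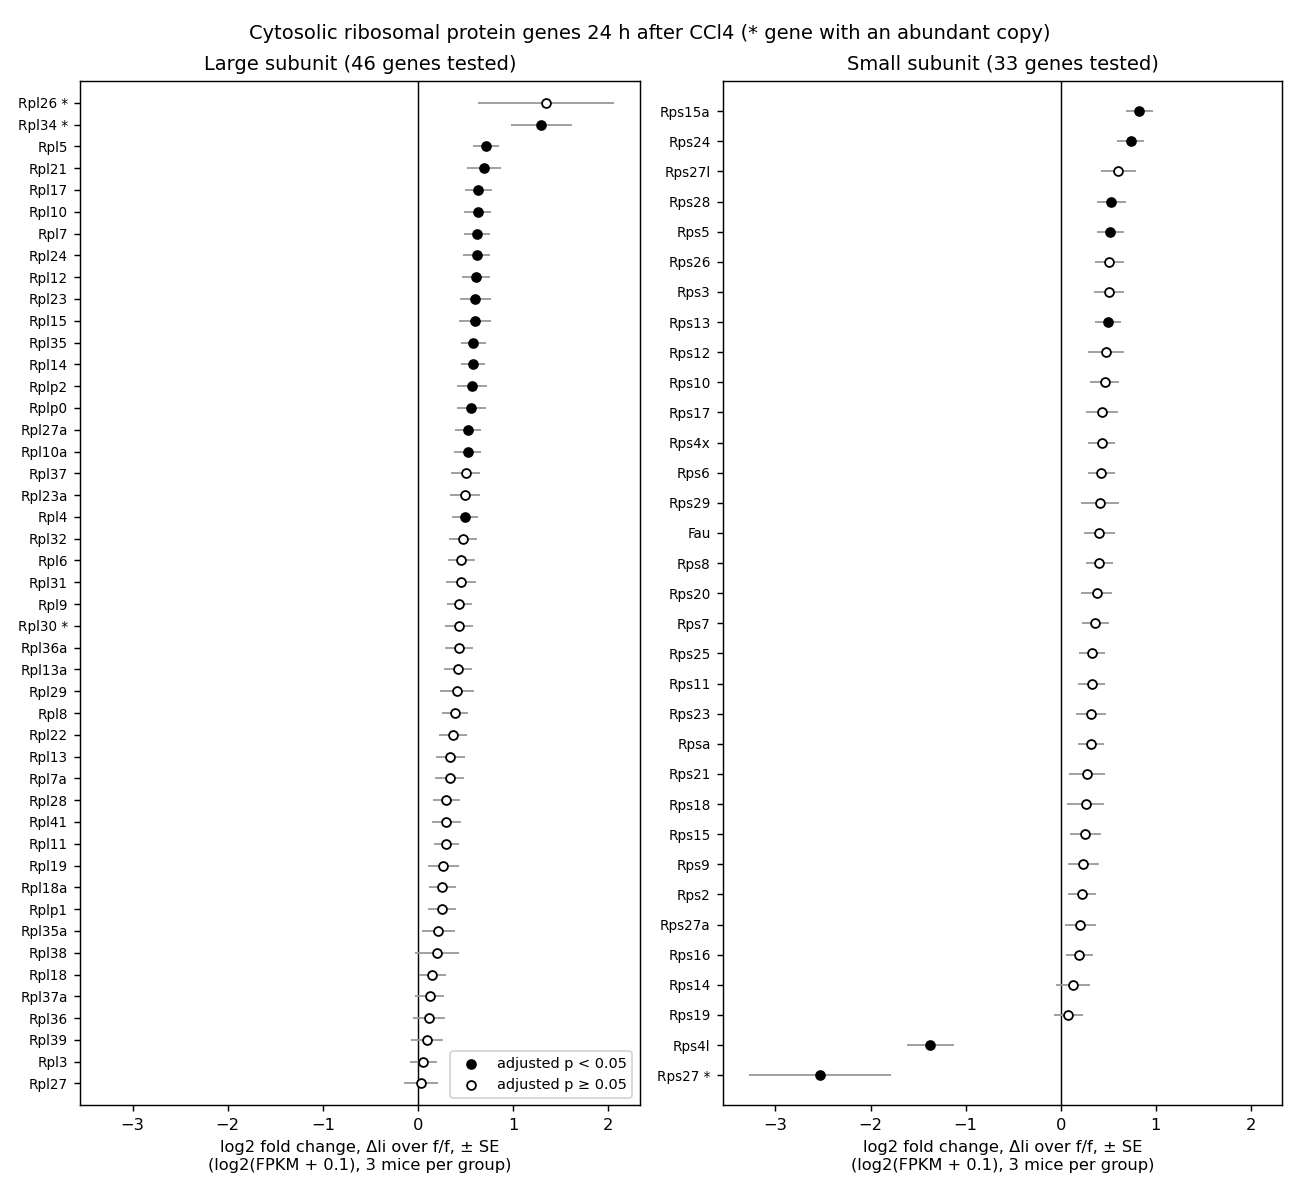
Log2 fold change, livers labelled med23 Δli over controls, ± SE for the 46 large and 33 small subunit genes tested (3 mice per group; filled, adjusted p under 0.05; asterisk, gene with an abundant copy, described below). All large subunit genes and all but Rps4l and Rps27 of the small subunit lie right of 0 on this scale.

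Among the large subunit genes, the stalk, which recruits the translation factors with GTPase activity, had 3 of its 4 genes called higher, where 37.0% of the large subunit and 11.6% of all genes were. Rplp0, the stalk's anchor (ENSMUSG00000067274.10, chr5:115559467-115563727), had 751, 930 and 782 FPKM in the controls and 1330, 1181 and 1117 FPKM in those labelled med23 Δli, a log2 fold change of 0.56 ± 0.15 (SE; adjusted p = 0.0354). Rplp2, one of the acidic proteins, went from 1193, 1526 and 1159 FPKM to 1920, 2001 and 1806 FPKM (0.57 ± 0.16, adjusted p = 0.039). Rpl12, at the base of the stalk and named here after its values were seen, was higher by 0.61 on the log2 scale (adjusted p = 0.0236). Without the filter on low values neither Rplp0 (adjusted p = 0.0817) nor Rplp2 (0.107) was called, nor was Rplp2 with the libraries centred on their medians (0.0533). The other acidic protein, Rplp1, was the most abundant member of all. It had 2407, 2936 and 2631 FPKM in the controls and 3363, 3117 and 3023 FPKM in the other group, which do not overlap, with a log2 fold change of 0.26 ± 0.15 that did not pass the test (adjusted p = 0.243).

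Rpl5 and Rpl11 join the 5S rRNA in a particle that, when free of ribosomes, binds Mdm2, the ubiquitin ligase of p53. For Rpl5 (ENSMUSG00000058558.12, chr5:107900502-107909005) there were 291, 237 and 277 FPKM in the controls and 462, 448 and 407 FPKM in those labelled med23 Δli, and the log2 fold change of 0.71 ± 0.14 was called (adjusted p = 0.0131). Rpl11 had 993, 1111 and 1007 FPKM against 1290, 1286 and 1246 FPKM, without overlap, and its log2 fold change of 0.30 ± 0.13 was not called (adjusted p = 0.135). The partners thus differed in level and in size of change, although that difference was not tested.

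Around the exit of the peptide tunnel, where signal recognition particle and other factors meet the new chain, 2 of 9 genes (22.2%) were called higher, Rpl17 (0.64) and Rpl35 (0.58), where 27.8% of the members and 11.6% of all genes were. Rpl39, which lines the tunnel, had 998, 1135 and 856 FPKM in the controls and 1231, 959 and 997 FPKM in the other group. These values overlap (log2 fold change 0.09, adjusted p = 0.718), and the sign of the difference turned under quantile normalization.

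Of the remaining large subunit genes, Rpl21 was among the 5 largest called rises, with 162, 138 and 209 FPKM in the controls and 277, 291 and 246 FPKM in those labelled med23 Δli (log2 fold change 0.69 ± 0.18, adjusted p = 0.030). This call ended under quantile normalization (adjusted p = 0.0558) and without the filter on low values (0.0512). Rpl10, which joins late in assembly beside the peptidyl transferase center, had 1209, 1131 and 1303 FPKM against 2002, 1912 and 1712 FPKM (0.63 ± 0.14, adjusted p = 0.0209, and 0.0687 without the filter). No control reached the lowest of the other group in either gene. Rpl41, the second most abundant member and the smallest ribosomal protein, had 1787, 1951 and 1772 FPKM against 2536, 2261 and 2009 FPKM. It did not overlap and was not called (0.30 ± 0.15, adjusted p = 0.183). Rpl3, which reaches toward the peptidyl transferase center, was close to even: 568, 685 and 550 FPKM in the controls and 635, 642 and 588 FPKM in the other group (0.05 ± 0.14, adjusted p = 0.806), with the sign turning under quantile normalization.

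In the small subunit the largest called rises were those of Rps15a and Rps24. Rps15a (ENSMUSG00000008683.16, chr7:118104372-118116188) had 44.8, 38.5 and 37.1 FPKM in the controls and 79.5, 72.0 and 62.6 FPKM in those labelled med23 Δli, a log2 fold change of 0.83 ± 0.14 (adjusted p = 0.00963). Its level was low for a ribosomal protein mRNA, where the median of the 79 was 865 FPKM. The search for copies described below could not find one for Rps15a. Rps24 (ENSMUSG00000025290.17, chr14:24487125-24496959) had 540, 479 and 474 FPKM against 838, 909 and 743 FPKM (0.74 ± 0.14, adjusted p = 0.0126). Neither gene overlapped between the groups.

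At the mRNA entry and decoding site 0 of 5 genes were called by limma, where 11.6% of all genes were called higher. At limma's unadjusted p under 0.05, 2 of the 5 were higher, where 2449 of all 11956 genes were. Rps2, the third most abundant member, had 1542, 1818 and 1635 FPKM in the controls and 2077, 2030 and 1731 FPKM in the other group, with overlap (log2 fold change 0.22, adjusted p = 0.307). On the platform, where mRNA leaves, 1 of 4 genes was called, Rps28 (0.53, adjusted p = 0.0435), a share of 25% beside 15.2% of the small subunit and 11.6% of all genes. Rpsa, which sits at the exit and is also known as the laminin receptor, had 620, 576 and 564 FPKM against 797, 736 and 663 FPKM, without overlap and not called (0.32, adjusted p = 0.129).

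Rps6, the ribosomal substrate of the S6 kinases downstream of mTORC1, had 640, 525 and 571 FPKM in the controls and 794, 839 and 700 FPKM in those labelled med23 Δli. The groups did not overlap, and the log2 fold change of 0.43 ± 0.15 had an adjusted p of 0.0707 (0.0447, and called, after rescaling to an equal sum). Rps12, the fourth most abundant member, had 1275, 1712 and 1093 FPKM against 1986, 1888 and 1727 FPKM, also without overlap (0.48 ± 0.19, adjusted p = 0.107, and 0.041 under quantile normalization).

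Rps27a and Fau are made as fusions, the first to ubiquitin and the second to a ubiquitin-like protein. Fau had 777, 857 and 815 FPKM in the controls and 1207, 1182 and 885 FPKM in the other group (log2 fold change 0.41, adjusted p = 0.11). Rps27a had 714, 821 and 594 FPKM against 824, 869 and 741 FPKM, with overlap (0.20, adjusted p = 0.392).

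Inherited defects in several of these genes cause Diamond-Blackfan anaemia, a failure to make red cells. Of 9 such genes, 2 (22.2%) were called higher, Rpl5 and Rps24, where 27.8% of the members and 11.6% of all genes were. In 7 (77.8%) the livers labelled med23 Δli all lay above the controls, beside 72.2% of the members and 23.3% of all genes. Rps19, the gene mutated most often, was nearly level, with 539, 712 and 590 FPKM in the controls and 674, 600 and 662 FPKM in those labelled med23 Δli (log2 fold change 0.08 ± 0.15, adjusted p = 0.729).

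Ribosomal protein genes have left many processed pseudogenes, and reads of a gene and of a near-identical copy can be assigned to either. In the principal transcripts of GENCODE M21 a median of 59.4% of the 31-base words of a member (range 0 to 99.0) also occurred in a transcript of another annotated gene. For 4 members a copy sharing at least 10% of the member's words is itself in the deposited table with a mean of at least 100 FPKM. They are Rps27 with Rps27rt, Rpl34 with Rpl34-ps1, Rpl26 with Gm15772 and Rpl30 with Gm12191. Members that share less than 10% of their words in all could not pass this cut. Among them are Rps15a (8.53% of a transcript of 5179 bases) and Rps3 (8.95%), so a copy of theirs would be missed. Aligned without gaps, Rps27 and Rps27rt had 0 differences over 341 bases, Rpl26 and Gm15772 had 2 over 438, Rpl34 and Rpl34-ps1 had 2 over 354, and Rpl30 and Gm12191 had 1 over 348. To show how little separates gene and copy, 30 bases around the first difference are given for the pair of Rpl34 and the pair of Rpl26, with the differing base in capitals.
Rpl34: gaaagcacctaaatcTgcatgtggcgtgtg
Rpl34-ps1: gaaagcacctaaatcCgcatgtggcgtgtg
Rpl26: agttcaggttgttcgCggacactacaaagg
Gm15772: agttcaggttgttcgTggacactacaaagg
The stretch of Rpl34-ps1 lies at chr6:71124726-71124755 and that of Gm15772 at chr5:3236592-3236621, both on the plus strand, and those of Rpl34 and Rpl26 are bases 343 to 372 and 209 to 238 of the transcripts. Values of these 4 members are therefore uncertain on their own and were read with those of the copies.

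Rps27 (ENSMUSG00000090733.6, chr3:90212522-90213651), a zinc finger protein of the small subunit, had 164, 213 and 274 FPKM in the controls and 14.5, 148 and 22.8 FPKM in those labelled med23 Δli, and had the largest called fall (log2 fold change -2.53 ± 0.75, adjusted p = 0.0475). Its copy Rps27rt on chromosome 9 went the other way, from 1045, 1182 and 804 FPKM to 1753, 1639 and 1566 FPKM (0.73 ± 0.17, adjusted p = 0.0253). With each mouse left out in turn its log2 fold change lay between -1.87 and -3.54, and it was called only without med23 Δli mouse 2 (-3.54, adjusted p = 0.00336). The call also ended without the filter (adjusted p = 0.094), without a trend (0.0635) and with robust eBayes (0.125). Rps27 held 13.6% to 25.4% of the sum of both in the controls and 0.82% to 8.26% in the other group. Summed, they had 1209, 1394 and 1078 FPKM against 1767, 1787 and 1589 FPKM, without overlap (log2 fold change 0.49 ± 0.15, adjusted p = 0.0548). The fall of Rps27 thus turned into a difference of the opposite sign, near the median of the members, when the copy was added.

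Rpl34 (chr3:130726831-130730398), the largest called rise, had 244, 161 and 424 FPKM in the controls and 717, 651 and 532 FPKM in the other group (log2 fold change 1.30 ± 0.32, adjusted p = 0.0283, and 0.0602 without the filter). Rpl34-ps1 was high where Rpl34 was low among the controls, at 700, 828 and 274 FPKM, and had 548, 558 and 599 FPKM in those labelled med23 Δli. The sum, 945, 989 and 698 FPKM against 1264, 1208 and 1131 FPKM, did not overlap, and its log2 fold change of 0.47 ± 0.17 was smaller and not called (adjusted p = 0.0841). Its SD within groups was 0.20 on the log2 scale, against 0.52 for Rpl34 alone.

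Rpl26 was the member with the lowest level above the filter, with 14.3, 6.08 and 47.3 FPKM in the controls and 57.2, 60.1 and 20.0 FPKM in those labelled med23 Δli. The groups overlap and its log2 fold change of 1.35 ± 0.72 was not called (adjusted p = 0.206). It was 0.66 without control 2 and 2.13 without control 3, where it was called (adjusted p = 0.0273). Gm15772 held between 94.4% and 99.5% of the sum of both in every library, and the summed log2 fold change was 0.36 ± 0.16 (adjusted p = 0.135). For Rpl30, where Gm12191 held between 93.8% and 95.2%, the value alone was 0.43 (adjusted p = 0.0713) and summed 0.53 ± 0.13, which was called (adjusted p = 0.0274). With all 4 copies added to their genes, 22 members were still called higher (21 of them among the 22 above), Rps4l was the only one called lower, and the median of the members remained 0.42. This addition was chosen after the values were seen.

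**Figure D4:**
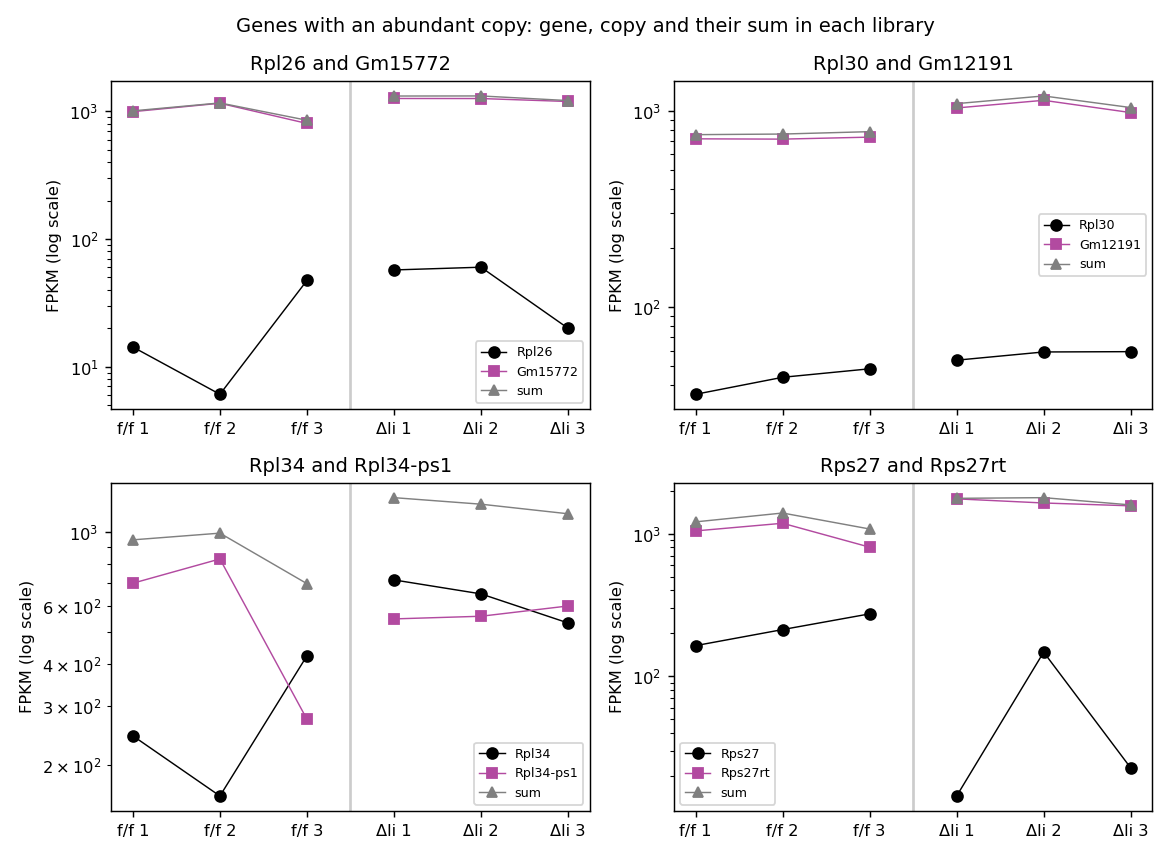
FPKM on a log axis of 4 members, their abundant copies and the sum of both in each library (controls f/f 1 to 3, livers labelled Δli 1 to 3). Single values of Rps27, Rpl34 and Rpl26 swing between mice of a group, Rpl34 in the controls opposite to its copy, while all sums are higher in the 3 livers labelled med23 Δli.

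The duplicated members are mostly restricted to other tissues. Rpl10l, known from testis, was listed at 0 in all 6 libraries, and Rpl39l, also known from testis, and Rpl3l, known from muscle and heart, were between 0 and 0.280 FPKM and between 0 and 0.151 FPKM. Rps27l, a relative of Rps27 that p53 can induce, had 394, 448 and 294 FPKM in the controls and 619, 574 and 514 FPKM in those labelled med23 Δli. Its groups did not overlap and its log2 fold change of 0.61 ± 0.18 lay just outside the threshold (adjusted p = 0.0507). It was called with a filter at 1 FPKM (adjusted p = 0.0489), quantile normalization (0.0354), rescaling to an equal sum (0.0284) and robust eBayes (0.0457).

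Rps4l (ENSMUSG00000063171.4, chr6:148354656-148355598), annotated as a processed transcript, was the exception to the direction of the group that no abundant copy accompanied. It had 52.0, 78.8 and 41.4 FPKM in the controls and 17.6, 24.2 and 22.9 FPKM in those labelled med23 Δli, a log2 fold change of -1.37 ± 0.24 (adjusted p = 0.0101), and it was called lower with each mouse left out and under every other setting tried. Its parent Rps4x, the X-linked S4 gene, went from 725, 677 and 676 FPKM to 1039, 931 and 838 FPKM (0.43 ± 0.14, adjusted p = 0.0622, and 0.0414 after rescaling to an equal sum). Permuting the 6 libraries exactly (two-sided) gave p = 0.1 for each of Rps4l, Rps27, Rpl34, Rps15a, Rps24, Rpl5 and Rpl21, the smallest this design allows.

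Ribosomal proteins whose names fall outside the rule moved in a mixed way. Of 7 tested, 4 were called higher: Rpl22l1, the paralog of Rpl22 (log2 fold change 0.79, adjusted p = 0.0097), Rps27rt (0.73), Gnb2l1, the scaffold protein of the small subunit (0.50), and Rps3a1 (0.46). Rpl7l1 was called lower (-0.52, adjusted p = 0.0302). The shares were 57.1% higher and 14.3% lower, beside 11.6% and 9.48% of all genes.

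The other genes of the translation machinery were counted from lists. Among 7 elongation factors 1 was called higher, Eef1b2, the exchange factor of eEF1A (log2 fold change 0.84, adjusted p = 0.00565), and the median was 0.40. Of 14 eIF3 subunits, Eif3f (0.64) and Eif3h (0.50) were called higher, with a median of 0.36. Of 18 other initiation factors 4 were called higher, Pabpc1, the poly(A) binding protein (0.68), Eif5 (0.61), Eif4g2 (0.57) and Eif1ax (0.48), and the median was 0.20. None of these 3 lists had a gene called lower. Their shares called, 14.3%, 14.3% and 22.2%, stand beside 11.6% of all genes.

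Among 10 other mRNAs known to carry a TOP sequence, which overlap the lists above, 3 (30%, beside 11.6% of all genes) were called higher: Npm1, a nucleolar chaperone (log2 fold change 0.98, adjusted p = 0.00621), Tpt1 (0.75, adjusted p = 0.0125) and Pabpc1. Their median, 0.42, equals that of the ribosomal proteins to 2 decimals, with quartiles of 0.28 and 0.63 and a range from -0.40 to 0.98. Below 0 were 2 of the 10, and Hnrnpa1 (-0.40) was lower without overlap and was not called (adjusted p = 0.0649). Of 14 genes of mTORC1 and LARP1 control, which include activators and inhibitors, 4 were called higher, Deptor (1.42), Eif4ebp1 (1.15), Mtor itself (0.75) and Tsc2 (0.63). Mlst8, a subunit of the kinase complex, was called lower (-0.76). These are 28.6% higher and 7.14% lower, beside 11.6% and 9.48% of all genes. Larp1, the repressor of TOP mRNAs, was not called (log2 fold change 0.12, adjusted p = 0.584). Of 8 partners of the nascent chain, the signal recognition particle and the nascent chain complex, 0 were called by limma. Over all genes tested 11.6% were called higher and 9.48% lower. At limma's unadjusted p under 0.05, 3 of the 8 were higher, where 2449 of all 11956 genes were.

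Mitochondrial ribosomal proteins, which build the separate ribosome of mitochondria, give the contrast. Of 77 tested, 4 were called higher and 3 lower (5.19% and 3.90%), beside 11.6% and 9.48% of all genes. For 42 the log2 fold change was above 0, where 52.2% of all genes were, and the median was 0.03. Among the 768 other genes averaging 100 FPKM or more the median was 0.09 and 16.8% were called higher, and among the 1018 other genes with a transcript no longer than the upper quartile of the members the median was -0.01 and 9.92% were called higher.

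**Figure D5:**
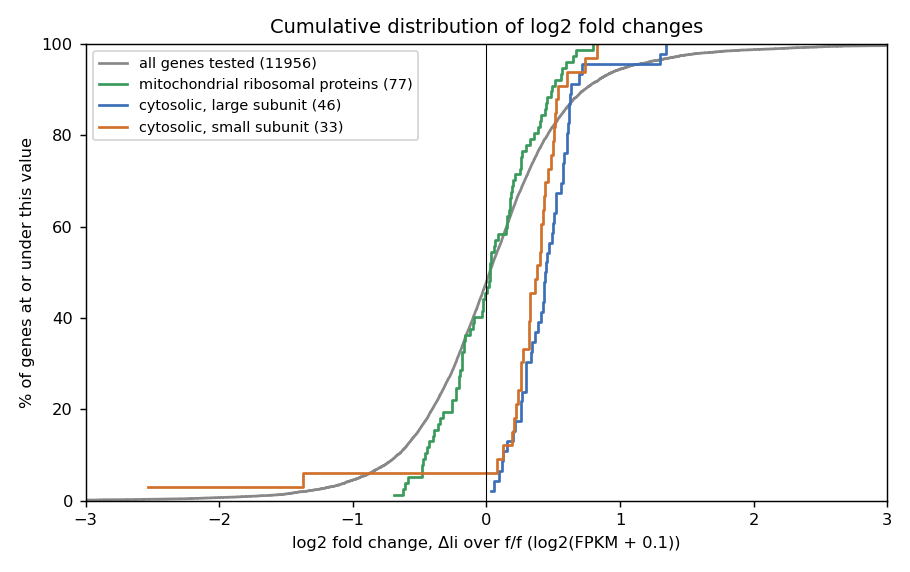
Cumulative share of genes (percent) by log2 fold change, for large and small subunit genes, mitochondrial ribosomal proteins and all genes tested. The cytosolic curves rise between 0 and about 0.8, with medians of 0.44 and 0.38, whereas the mitochondrial curve and that of all genes cross 50% near 0.03 and 0.02.

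Between members, the size of the difference followed none of their properties closely. Over the 79 genes, Spearman's rho of the log2 fold change was 0.30 with the transcript length, -0.20 with the mean level and -0.07 with the share of words found in other genes. The genes share the same 6 libraries and are not independent. Lengths and words are those of 1 GENCODE transcript per gene. Its length was 5179 bases for Rps15a and 3706 for Rps20, where the median of the 82 was 789.5, and other transcripts were not tried. The 14 genes with the pyrimidine run at an annotated start had a median log2 fold change of 0.42, and the 44 tested genes without it 0.43. Replicates were close, with a median SD within groups of 0.15 on the log2 scale, against 0.20 for the 843 genes averaging 100 FPKM or more, and only Rps27, Rpl26 and Rpl34 exceeded 0.5. The 82 genes lie on 20 chromosomes, with 14 on chromosome 7.

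Liver cell markers were examined beside these differences. Of the hepatocyte list, which held the most RNA, 0 of 5 genes were called by limma, where 11.6% of all genes were called higher and 9.48% lower. At limma's unadjusted p under 0.05, 2 were lower, where 2047 of all 11956 genes were. These were Apoa1 (log2 fold change -0.57, adjusted p = 0.116) and Cps1 (-0.63, adjusted p = 0.0974). Alb was also below 0 (-0.36), while Ttr (0.38) and Ass1 (0.20) were above 0. The summed FPKM of the list overlapped, at 22039 to 31560 in the controls and 18361 to 24695 in the livers labelled med23 Δli. All 6 endothelial genes were called lower, where 9.48% of all genes were (log2 fold change -0.75 to -1.27), with a sum of 81.4 to 119 FPKM in the controls and 43.7 to 46.9 FPKM in the other group. Of 6 stellate cell genes, Des was called lower (-0.56). At limma's unadjusted p under 0.05, 2 genes of this list were lower and 1, Reln (0.47), was higher, where 2047 and 2449 of all 11956 genes were. In the lists of Kupffer cells and macrophages (8 tested), neutrophils (4) and cholangiocytes (4) limma called 0. At an unadjusted p under 0.05, 2 genes were lower in the Kupffer cell list, 2 in the neutrophil list and 0 in the cholangiocyte list, where 2047 of all 11956 genes were. The T, B and NK cell genes were all under the filter, with sums of at most 1.09, 1.30 and 0.532 FPKM. Of the erythroid genes, Hba-a1, which has a near-identical neighbor, was called higher (4.77). It was at most 0.0031 FPKM in the controls and as low as 0.139 FPKM in med23 Δli mouse 3. The size of its change therefore depends on the 0.1 FPKM added before taking logs. Hba-a2 (-0.13), Alas2 (-0.40) and Hbb-bs (-2.06) were below 0 and were not called. The erythroid list summed to 27.5 to 204 FPKM in the controls and 40.5 to 69.4 FPKM in the other group. Of the cycling cell genes only Cdk1 passed the filter and was not called. The part of a changed cell makeup in the higher ribosomal protein mRNAs was not tested.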

How the data were processed

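The deposited table holds 1 FPKM value per gene and library for 24346 genes. Per the paper's methods the authors made TruSeq v2 libraries, trimmed adapters, aligned paired reads to mm10 with TopHat and ran Cuffdiff; versions, annotation, strand setting and the handling of reads that fit several genes are not given in the sources used here. The table also holds the authors' group means and their Cuffdiff fold changes, statistics, p and q values, which were not used. All 6 columns of single libraries matched a sample label. Low FPKM values of library pairs shared no common step, so read counts could not be recovered and no count model was run.

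Genes averaging 0.5 FPKM or more (11956) were compared on log2(FPKM + 0.1) with limma 3.58.1 in R 4.3.3 (lmFit, eBayes with a trend), Benjamini-Hochberg adjusted over all of them, after the script had been tested on simulated data. p-values rest on 3 mice per group. The members and the lists were chosen with earlier results of these data known. Named members were the 5 largest called rises and falls, the 5 highest and 5 lowest by level, the duplicated genes with their parents, 10 genes chosen for their roles and all genes under the filter; of other lists, up to 4 called genes. Further genes are said to be named after their values were seen, or stand for a list's count. Copies were sought as shared 31-base words between principal transcripts of GENCODE M21 (GRCm38, as mm10). Start sites came from RefSeq (GRCm38.p6). Gene positions are those of GENCODE M21. Of the lists, Tf, Ly6g and Hbb-bt were not analysed here, and Rps30 and Rack1 were read under the symbols Fau and Gnb2l1. Some genes of the lists are not reported here by name. Other settings were a pseudocount of 1 or 0.01, keeping every gene above 0, a minimum mean of 1 FPKM, median centring, quantile normalization, rescaling to 1000000, eBayes without trend or robust, the replicate number as a block, each library left out, and, for the share of FPKM, a total without the 10 most abundant genes. The rest was done in Python 3.11.15 (pandas 2.3.3, numpy 2.4.6, matplotlib 3.10.9, scipy 1.17.1).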

Additional observations from a re-analysis of the deposited data

How the results depend on the processing

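The medians over the members, over either subunit and their difference kept their sign under each alternative, and the summed share of FPKM was 3.14 percentage points higher in the livers labelled med23 Δli (2.79 with the 10 most abundant genes left out of the total). Quantile normalization gave the lowest medians, with 0.35 for the large subunit. Members called higher, 22 in the report, were 7 without a filter on low values (1048 of all 17752 genes) and 34 after rescaling to an equal sum (1414 of all 11956 genes). With each mouse left out they ranged from 0 to 21, members called lower from 1 to 2, and all genes called higher from 401 to 1750 and lower from 349 to 1429. Only 1 member, Rps4l, was called lower without a filter, without a trend, with robust eBayes and with the copies summed. The replicate numbers did not pair the mice: deviations of same-numbered libraries correlated at -0.02, -0.05 and -0.12, and with the replicate block 13 members were called higher, with 809 genes higher and 614 lower over the table (1384 and 1133 without it). Of the named members, Rpl21 (adjusted p = 0.0616) and Rplp0 (0.0597) were then not called and Rps27l (0.0488) was. Of single genes, Rps27 turned to 0.49 with its copy added. Rpl3 turned to -0.026 and Rpl39 to -0.082 under quantile normalization. With each mouse left out, Rpl3 ranged from -0.0051 (without control 3) to 0.15, Rpl39 from -0.017 (without med23 Δli mouse 1) to 0.19, Rps19 from -0.0079 (without control 1) to 0.19 and Med23 from -0.22 to 0.017 (without control 3), and Rpl39 was also below 0 without control 3. Rpl3, Rpl39, Rps19 and Med23 were not called at any setting tried. Why values and calls changed between settings was not tested. FPKM without counts leaves the depth of each library unknown, so differences of the size of a single gene's SE cannot be resolved with 3 mice per group.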
